A study of Mus musculus with 24 samples.

Results

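Interferon-stimulated genes are described here in the fetal liver of mouse embryos that lost the chromatin remodelers CHD4, BRG1 or both from endothelial cells. The group holds 41 genes, listed by name for their known induction by interferons, of the 25361 genes in the expression table. The names set the membership, and they were listed with earlier results of these data known. A minimum level decided which of them were tested in each fraction. Of the 41 genes, 40 reached 1 TPM in 3 or more of the 12 libraries of liver sinusoidal endothelial cells (LSECs). TPM is a transcript's abundance scaled by its length and the library total. In the 12 libraries of the remaining, non-EC liver cells 37 genes did so. Ifi44 did so in neither fraction, and Oas2, Rsad2 and Zbp1 in LSECs only.

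RNA came from livers at embryonic day 12.5, and each fraction was sequenced from 4 genotypes with 3 replicates each, which the study's methods give as separate embryos. LSECs were the CD146+ cells taken with magnetic beads, and non-EC cells were what the beads left behind. Controls were Cre-negative (Cre-). Chd4-ECko embryos were Chd4fl/fl;Brg1fl/+;VE-cadherin-Cre+, Brg1-ECko embryos were Chd4fl/+;Brg1fl/fl;VE-cadherin-Cre+, and Brg1/Chd4-ECdko embryos were Chd4fl/fl;Brg1fl/fl;VE-cadherin-Cre+. All 3 mutants thus carried the Cre and at least 1 floxed allele of both genes, while controls lacked the Cre. The VE-cadherin promoter that drives the Cre is also active in part of the fetal blood lineage. Embryos of both sexes on a mixed background were used, and the digestion contained inhibitors of transcription and translation.

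Interferons are secreted proteins that cells release when they sense foreign or misplaced nucleic acid, or, for interferon gamma, when lymphocytes are activated. Type I interferons bind the receptor IFNAR1/IFNAR2 and, through the kinases JAK1 and TYK2, lead to the assembly of ISGF3, a complex that contains STAT2 and IRF9. ISGF3 binds the interferon-stimulated response element (ISRE) near the start of many target genes, whereas interferon gamma signals through IFNGR1/IFNGR2 to the gamma-activated site (GAS). The targets encode antiviral effectors, nucleic acid sensors and members of the pathway itself, and many have a low basal level in uninfected tissue.

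The ISRE, the best known element of such genes, was searched in the promoters of the 41 genes. A promoter was taken as 250 bases before to 50 bases after the transcript start (GRCm39, GENCODE vM39 canonical transcripts), and the letters searched were GAAA, any 2 bases, GAAA, on both strands. In a printed sequence TTTC, 2 bases, TTTC is therefore the same element on the other strand. At least 1 match lay in 19 of 41 promoters (46.3%), against 828 of the 21618 promoters of protein-coding genes in the expression table (3.83%). The GAS letters TTC, any 3 bases, GAA, which read the same on both strands, lay in 8 of 41 (19.5%), against 1908 of 21618 (8.83%). A match is a string of letters and was not tested for binding. The stretches below belong to 5 genes described in the results and to the near-identical copies Ifit3 and Ifit3b, with matches in capitals, the strand of the gene, and positions counted from the first transcript base as 1.

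Rtp4 had 4 matches between bases -66 and 23 (chr16:23428580-23428668, plus strand), Isg15 had 3 overlapping matches between -65 and -14 (chr4:156285317-156285368, minus strand), Usp18 had 2, 1 on each strand, between -90 and -27 (chr6:121222767-121222830, plus strand), Irgm1 had 2 overlapping matches between -45 and 1 (chr11:48762247-48762292, minus strand), and Dhx58 had 1 between -19 and 21 (chr11:100595077-100595116, minus strand). The Ifit3 and Ifit3b stretches (chr19:34560758-34560831, plus strand and chr19:34585154-34585227, plus strand) were identical over 74 bases, and these 2 genes are near-identical copies, so their TPM values are uncertain wherever reads could be assigned to either.

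Rtp4: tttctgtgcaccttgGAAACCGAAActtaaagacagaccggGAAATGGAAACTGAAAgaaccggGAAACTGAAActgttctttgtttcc
Isg15: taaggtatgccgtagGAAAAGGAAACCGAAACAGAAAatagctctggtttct
Usp18: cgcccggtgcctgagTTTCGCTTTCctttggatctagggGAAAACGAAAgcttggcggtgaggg
Irgm1: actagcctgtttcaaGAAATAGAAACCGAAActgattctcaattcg
Dhx58: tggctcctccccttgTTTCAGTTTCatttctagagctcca
Ifit3: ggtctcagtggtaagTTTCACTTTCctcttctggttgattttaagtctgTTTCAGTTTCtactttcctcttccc
Ifit3b: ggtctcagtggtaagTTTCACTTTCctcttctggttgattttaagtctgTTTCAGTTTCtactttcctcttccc

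Irf7, Irf9, Xaf1, Lgals3bp, Ifitm2 and Ifitm3, which also appear among the leading genes below, had no match in this window.

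The study's methods give a nominal read number, but the deposited values were TPM. The depth of each library is therefore unknown, and no counting error can be given. LSEC libraries held 12746 to 13219 genes at 1 TPM or more and non-EC libraries 11450 to 11973, and mitochondrial genes took 13.9 to 31.5% of TPM in LSECs and 2.33 to 7.69% in non-EC cells. The targeted genes were checked first, and neither separated the genotypes. Chd4 in LSECs was at 262 ± 20.1 TPM in controls, 215 ± 42.5 with Chd4-ECko and 249 ± 6.95 in the double mutant (SD, n = 3). Smarca4, which encodes BRG1, was at 146 ± 13.4 in controls, 132 ± 23.5 with Brg1-ECko and 133 ± 16.7 in the double mutant. Whole-gene TPM also counts transcripts that lack only the floxed exons, so these values do not check the labels. Summed TPM of 8 endothelial markers was 857 to 1790 in LSECs, against 25.8 to 59.7 in non-EC cells. LSEC libraries also held 7 hepatoblast markers at a summed 3071 to 25677 TPM and 13 macrophage markers at 777 to 1751 TPM. The highest hepatoblast sum belonged to replicate 1 of Brg1-ECko LSECs, against 5832 and 6253 TPM in the other 2 libraries of that genotype. Fewer cells of a type and less RNA per cell cannot be told apart in such bulk libraries.

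Levels of the group in the liver spanned a wide range. Ifitm2, a membrane protein that restricts virus entry, had the highest TPM of the 41 genes, at 252 to 341 TPM over the 12 LSEC libraries and 118 to 224 over the 12 non-EC libraries. Ifitm3, its close relative, ranged from 45.6 to 119 TPM in LSECs and from 15.7 to 53.1 in non-EC cells, and Bst2 (tetherin, which holds budding virus at the cell surface) from 31.0 to 75.0 and from 13.1 to 44.1. Lgals3bp, a secreted glycoprotein, was at 16.4 to 56.03 TPM in LSECs and 23.3 to 79.5 in non-EC cells, and Trim25, a ubiquitin ligase of RIG-I signaling, at 23.9 to 50.9 and 41.1 to 58.1. Several classical targets of type I interferon stood far lower: Isg15 at 1.49 to 14.98 TPM in LSECs, Ifit1 at 0.554 to 2.39, Mx1 at 0.220 to 1.77, and Rsad2 (viperin) at 1.36 to 7.14. TPM is scaled by transcript length, which allows these levels to be set side by side.

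Between fractions of the control embryos, interferon-stimulated genes differed in both directions. In LSECs 16 of 40 genes were higher and 11 lower than in non-EC cells at an adjusted p under 0.05 (limma, 24 libraries in 1 model). Over all 13775 genes tested 31.3% were higher and 35.8% lower. This split followed the scaling: it was 9 higher and 17 lower after quantile normalization, and 20 higher and 5 lower with mitochondrial genes taken out before rescaling. The shares of all genes went with it, at 28.7% higher and 40.2% lower after the first and 39.5% and 25.2% after the second. These fits took the 24 libraries as independent. With LSEC and non-EC libraries of 1 genotype and replicate number taken as pairs, 17 of 40 were higher and 12 lower under the deposited scaling. Of all 13775 genes 9585 then passed, in place of 9241. Under all 3 scalings 9 genes stayed higher in LSECs, namely Ifit2, Oasl2, Rsad2, Bst2, Ifitm2, Ifitm3, Gbp2, Gbp3 and Ifi27, and 5 stayed lower, namely Irf9, Usp18, Ifitm1, Cmpk2 and Ifi35. The share of all genes that passed under all 3 scalings was not counted, so these 2 counts have no background. The difference on the log2(TPM + 1) scale was 2.21 ± 0.25 (SE, adjusted p = 1.3e-07) for Gbp2, a guanylate-binding GTPase that acts on vacuoles of intracellular pathogens, and 1.12 ± 0.11 (adjusted p = 8.15e-09) for Ifitm2. At the other end stood Ifi35 at -1.17 ± 0.20 (adjusted p = 2.73e-05) and Usp18, the protease that removes ISG15 from proteins and dampens type I receptor signaling, at -0.96 ± 0.24 (adjusted p = 0.0013). Gbp2 was at 25.8, 34.05 and 25.2 TPM (28.4 ± 4.94) in control LSECs and at 4.77, 4.83 and 6.43 TPM (5.34 ± 0.945) in control non-EC cells, and Ifi35 was at 12.2, 12.7 and 9.86 TPM (11.6 ± 1.52) and 28.8, 28.9 and 23.97 TPM (27.2 ± 2.82). The groups did not overlap for either gene.

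Mutant LSECs were compared with control LSECs to ask whether the loss of either remodeler, or of both, moves these genes in the endothelium. Most of the group had a higher mean in each mutant than in controls, but few genes passed adjustment over all genes tested, and those that did were in Brg1/Chd4-ECdko LSECs. There 6 of 40 genes rose (Rtp4, Irf7, Irf9, Dhx58, Xaf1 and Oas1a) and 0 fell, against 0.751% and 0.119% of all 13444 genes. Of these 6 genes 5 exceeded a log2 fold change of 1, against 0.565% of all genes past that size in either direction. Across the 40 genes the log2 fold change had a median of 0.56, with a range of -0.21 to 1.49, beside a median of 0.16 over all genes, a difference of 0.40. Above 0 were 38 of 40 (76.7% of all genes), and 26 were higher and 0 lower at an unadjusted p under 0.05 (10.9% and 1.23% of all genes). In Chd4-ECko LSECs 0 of the 40 passed, against 0.677% of all genes that rose and 0.0298% that fell. There 36 of 40 were above 0 (51.6% of all genes), 16 were higher and 1 lower at an unadjusted p under 0.05 (5.46% and 1.03%), and the median was 0.39 beside 0.01 over all genes. In Brg1-ECko LSECs 3 of 13444 genes passed at all (0.00744% rose and 0.0149% fell) and 0 of the 40 did. Of the 40, 34 were above 0 (65.2% of all genes), 22 were higher and 0 lower at an unadjusted p under 0.05 (7.13% and 2.55%), and the median was 0.47 beside 0.08. Without the hepatoblast-rich replicate 1 of Brg1-ECko, 0 of 40 passed, and 3 of all 13390 genes did. The 3 mutants were compared with the same 3 control libraries, so their values stand side by side and are not independent of each other.

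Counted by library, all 3 values of the mutant lay above all 3 control values for 22 of 40 genes with Chd4-ECko (55.0%, against 8.7% of all genes) and 22 with Brg1-ECko (55.0%, against 10.9%). The double mutant had 26 such genes (65.0%, against 20.8%). All 3 mutant values lay below all 3 control values for Ifit2 with Chd4-ECko (3.65% of all genes) and for Ifitm2 with Brg1-ECko (3.71%), and for 0 genes in the double mutant (2.29%). Per library, the median of the 40 genes relative to the control mean was 0.04, -0.04 and 0.00 for controls. It was 0.41, 0.29 and 0.50 for Chd4-ECko, 0.40, 0.61 and 0.41 for Brg1-ECko, and 0.36, 0.54 and 0.82 for the double mutant. Each mutant library thus stood above each control library, with replicate 3 of Brg1/Chd4-ECdko the highest. The mitochondrial share, which lowers the TPM of all other genes, varied between these libraries: it was 27.4, 14.7 and 13.9% in the double mutant and 20.6 to 24.6% in controls. Over all 13444 genes the same median was 0.01, 0.16 and 0.29 in the double mutant. Less the median over all genes, the 40 genes stood at 0.35, 0.38 and 0.53 there, at 0.43, 0.35 and 0.37 for Chd4-ECko, at 0.29, 0.55 and 0.34 for Brg1-ECko and at -0.03 to 0.03 for controls, so that replicate 2 of Brg1-ECko was then the highest.

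**Figure D1:**
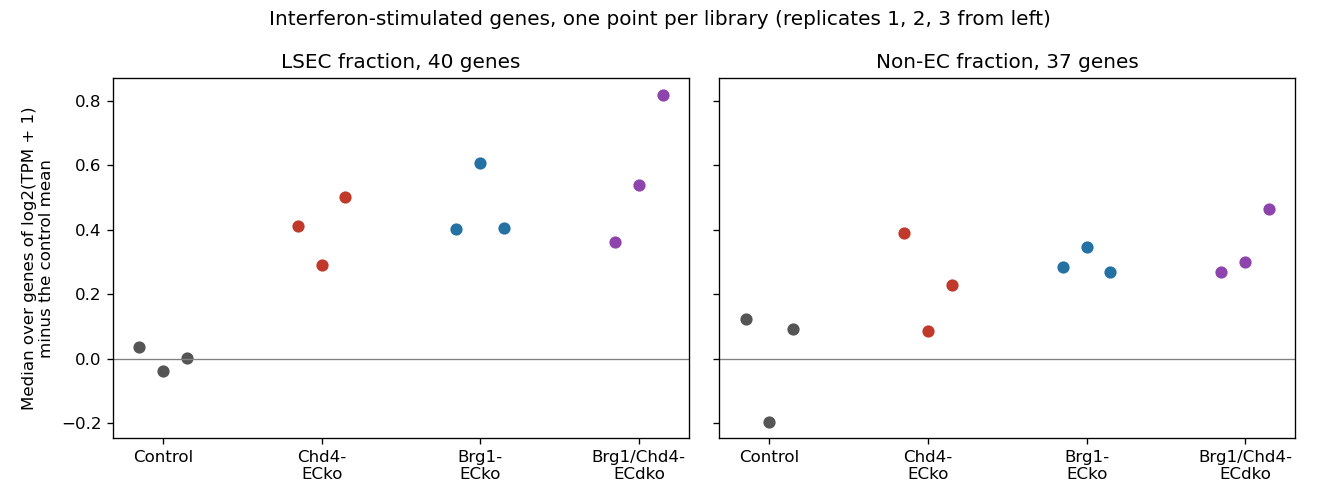
Median over the interferon-stimulated genes of log2(TPM + 1) minus the control mean of the same fraction, 1 point per library, for the 4 genotypes in LSECs (left, 40 genes) and non-EC cells (right, 37 genes). LSEC libraries of the mutants lie between 0.29 and 0.82 and those of controls between -0.04 and 0.04; in non-EC cells control replicate 2 lies at -0.20 and Chd4-ECko replicate 2, at 0.09, does not clear the controls.

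**Figure D2:**
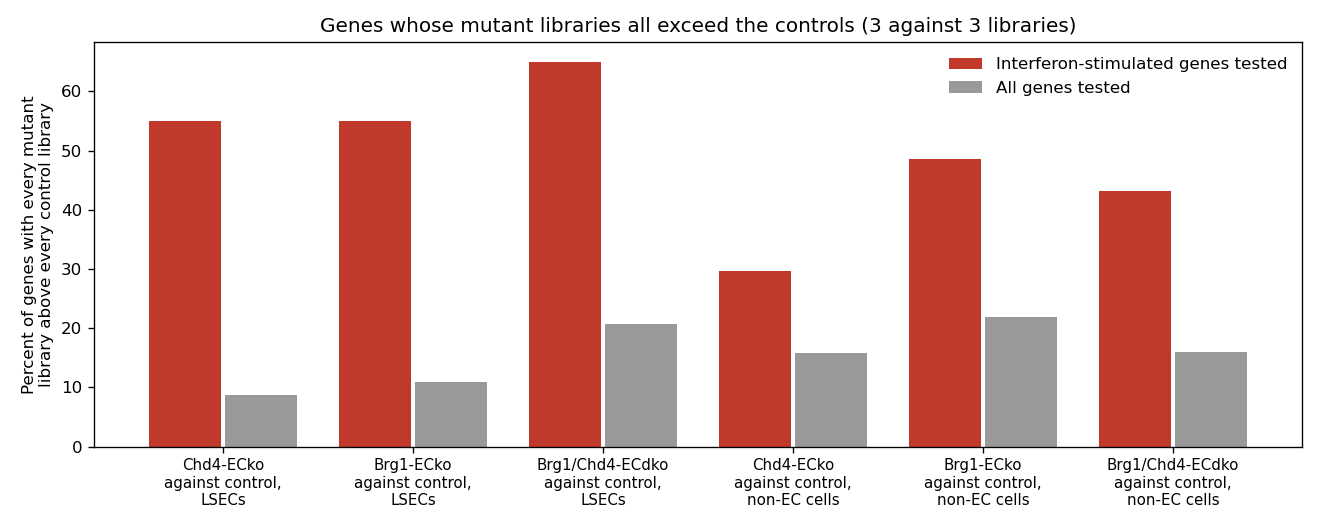
Percent of interferon-stimulated genes, and of all genes tested, whose 3 mutant values all lie above the 3 control values, for the 3 mutants in LSECs and in non-EC cells. In LSECs the group stands at 55.0%, 55.0% and 65.0% against 8.7%, 10.9% and 20.8% of all genes.

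Markers of other cells moved with these differences. In Chd4-ECko LSECs all 13 macrophage markers had a higher mean than in controls (median log2 fold change 1.02, 4 of 13 passed), with summed levels of 1081 to 1751 TPM against 840 to 1026. So did all 6 general leukocyte markers (132 to 226 TPM against 72.4 to 108, 2 of 6 passed). All 11 erythroid markers were also above 0 there (median 0.79, 3 of 11 passed), at 731 to 2407 TPM against 350 to 1226, ranges that overlap. In the double mutant 6 of 11 were above 0 (median 0.07) and 3 passed higher, and with Brg1-ECko 6 of 11 were above 0 (median 0.07) and 0 passed. In Brg1/Chd4-ECdko LSECs 12 of 13 macrophage markers were above 0 (median 0.66, 0 passed, 921 to 1335 TPM) and 6 of 6 leukocyte markers (median 0.82, 2 passed, 141 to 179 TPM). In Brg1-ECko LSECs 11 of 13 macrophage markers (median 0.55, 0 passed, 777 to 1203 TPM) and 6 of 6 leukocyte markers (median 0.48, 0 passed, 119 to 127 TPM) were above 0. Hepatoblast markers were above 0 for 7 of 7 in Brg1-ECko LSECs (median 1.04, 5832 to 25677 TPM against 3071 to 6301 in controls) and 7 of 7 in the double mutant (median 0.43, 4641 to 7290 TPM), and for 0 of 7 in Chd4-ECko. Endothelial markers were above 0 for 0 of 8 with Brg1-ECko (median -0.46, 857 to 1368 TPM against 1364 to 1790) and 2 of 8 in the double mutant (median -0.20, 1239 to 1508 TPM), and none of either list passed. Immediate-early genes, which cell dissociation induces, were above 0 for 6 of 7 tested in the double mutant (0 passed), where their summed level of 145 to 176 TPM lay above the 124 to 137 of controls, for 5 of 7 in Chd4-ECko (125 to 169 TPM) and for 1 of 7 in Brg1-ECko (99.96 to 137 TPM). Granulocyte markers were above 0 for 2 of 4 tested in each mutant. For Chd4-ECko, Brg1-ECko and the double mutant, megakaryocyte markers were above 0 for 4, 3 and 3 of 6. Mesenchymal markers were above 0 for 1, 3 and 3 of 5 in the same order, and none of these 3 lists had a gene that passed. No macrophage or leukocyte marker was at 0 in any LSEC library, and macrophages also express many of these genes. The part of these cells and genes in the result was not tested.

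Among the transcription factors of the pathway, Irf7, which amplifies type I interferon output, and Irf9, the DNA-binding subunit of ISGF3, rose in Brg1/Chd4-ECdko LSECs. Irf7 (ENSMUSG00000025498, chr7:140842619-140846398, minus strand) was at 4.26, 3.25 and 4.21 TPM (3.91 ± 0.574) in the 3 controls, where the values in parentheses here and below are the mean and SD of 3 libraries. Chd4-ECko libraries had 10.3, 6.34 and 8.96 TPM (8.53 ± 2.004), Brg1-ECko libraries 7.75, 11.7 and 7.64 TPM (9.02 ± 2.295) and Brg1/Chd4-ECdko libraries 10.6, 8.48 and 14.1 TPM (11.05 ± 2.84). Every mutant library was above every control library. The log2 fold change was 1.28 ± 0.22 (SE) in Brg1/Chd4-ECdko (limma, adjusted p = 0.0144), against 0.94 ± 0.22 (adjusted p = 0.0811) for Chd4-ECko and 1.01 ± 0.22 (adjusted p = 0.185) for Brg1-ECko. Irf9 (ENSMUSG00000002325, chr14:55841028-55847812, plus strand) was at 9.75, 8.77 and 10.2 TPM (9.57 ± 0.729) in controls. The levels for Chd4-ECko were 16.4, 12.4 and 18.2 TPM (15.7 ± 2.95), those for Brg1-ECko 22.3, 19.3 and 16.6 TPM (19.4 ± 2.82) and those for the double mutant 15.3, 19.6 and 26.6 TPM (20.5 ± 5.71). The log2 fold change was 0.99 ± 0.20 with both genes deleted (adjusted p = 0.0329) and 0.94 ± 0.20 with Brg1-ECko (adjusted p = 0.173). These ranges did not overlap with controls either. With Irf1 and Stat2, all 4 factors had a mean above controls in each mutant under the deposited scaling, quantile normalization and removal of mitochondrial genes, with medians of 0.52 for Chd4-ECko, 0.72 for Brg1-ECko and 0.80 for the double mutant.

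Sensors of viral RNA gave the fourth of the 6 calls. Dhx58 (ENSMUSG00000017830, chr11:100585710-100595097, minus strand), which encodes the RIG-I-like receptor LGP2, was at 1.42, 0.922 and 1.23 TPM (1.19 ± 0.254) in control LSECs. With Chd4-ECko it stood at 3.15, 2.62 and 3.73 TPM (3.16 ± 0.556), with Brg1-ECko at 2.34, 3.57 and 1.76 TPM (2.55 ± 0.926) and with Brg1/Chd4-ECdko at 3.598, 2.96 and 4.26 TPM (3.61 ± 0.653). It was higher in all 9 mutant libraries than in any control, at a level where the scale of log2(TPM + 1) understates the change: 1.07 ± 0.21 in Brg1/Chd4-ECdko (adjusted p = 0.034) and 0.92 ± 0.21 in Chd4-ECko (adjusted p = 0.0728). Ifih1 (MDA5) had log2 fold changes of 0.42 for Chd4-ECko, 0.80 for Brg1-ECko and 0.71 for the double mutant, none of which passed (lowest adjusted p = 0.152). Rigi, which encodes RIG-I itself and is not among the 41 genes, rose in Brg1/Chd4-ECdko LSECs by 0.92 ± 0.18 (adjusted p = 0.0291), from 7.43, 6.11 and 7.31 TPM (6.95 ± 0.7301) to 10.9, 13.9 and 17.995 TPM (14.3 ± 3.56).

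Of the antiviral effectors, Oas1a passed in the double mutant. Oas1a (ENSMUSG00000052776, chr5:121031070-121046449, minus strand) makes the 2′-5′ oligoadenylates that activate RNase L, and it was at 1.65, 1.04 and 1.65 TPM (1.45 ± 0.352) in control LSECs. Libraries of Chd4-ECko held 3.85, 3.11 and 8.604 TPM (5.19 ± 2.98), those of Brg1-ECko 2.99, 5.55 and 3.23 TPM (3.92 ± 1.41) and those of the double mutant 5.21, 4.16 and 8.91 TPM (6.095 ± 2.496). Its log2 fold change was 1.25 ± 0.32 for Chd4-ECko (adjusted p = 0.114), 0.98 ± 0.32 for Brg1-ECko (adjusted p = 0.389) and 1.49 ± 0.32 for the double mutant (adjusted p = 0.0469). The spread among mutant libraries was wide, yet none reached down to the controls. Over the 13 effectors the medians were 0.32, 0.42 and 0.54 in that order, with 11, 12 and 12 of 13 above 0. Isg20 alone of them was below 0 in the double mutant, and Ifit1 and Ifit2 changed sign with the scaling in the double mutant. Ifit2, which binds viral RNA and restricts translation, went the other way in Chd4-ECko LSECs. It was at 18.0005, 18.8 and 17.01 TPM (17.9 ± 0.872) in controls and 13.3, 13.2 and 12.9 TPM (13.1 ± 0.196) in Chd4-ECko, with no overlap. That difference, -0.42 on the log2(TPM + 1) scale, did not pass adjustment.

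Xaf1 and Rtp4 completed the set that passed. Rtp4 (ENSMUSG00000033355, chr16:23337811-23432972, plus strand), a transmembrane chaperone of G protein-coupled receptors, had the smallest adjusted p of the group in each of the 3 LSEC comparisons. It was at 3.302, 2.39 and 2.26 TPM (2.65 ± 0.567) in controls. Among mutants, Chd4-ECko gave 6.36, 5.29 and 7.48 TPM (6.38 ± 1.09), Brg1-ECko 5.82, 7.64 and 6.84 TPM (6.77 ± 0.916) and Brg1/Chd4-ECdko 5.84, 7.53 and 11.2 TPM (8.18 ± 2.73). The lowest mutant library thus stood well above the highest control. Chd4-ECko differed from controls by 1.02 ± 0.22 (adjusted p = 0.0503, 95% interval 0.55 to 1.48) and Brg1-ECko by 1.09 ± 0.22 (adjusted p = 0.159, 0.63 to 1.56). Both deletions together went with 1.30 ± 0.22 (adjusted p = 0.0111). Xaf1 (ENSMUSG00000040483, chr11:72192397-72204559, plus strand), which binds the apoptosis inhibitor XIAP, was at 1.68, 2.68 and 1.71 TPM (2.02 ± 0.5697) in controls. Chd4-ECko libraries had 4.78, 3.79 and 3.64 TPM (4.07 ± 0.6199), Brg1-ECko libraries 2.11, 3.196 and 2.72 TPM (2.68 ± 0.544) and Brg1/Chd4-ECdko libraries 4.55, 4.17 and 7.15 TPM (5.29 ± 1.62). In the last it rose by 1.04 ± 0.22 (adjusted p = 0.0391). Its Brg1-ECko libraries overlapped the controls, and its Chd4-ECko and Brg1/Chd4-ECdko libraries did not.

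**Figure D3:**
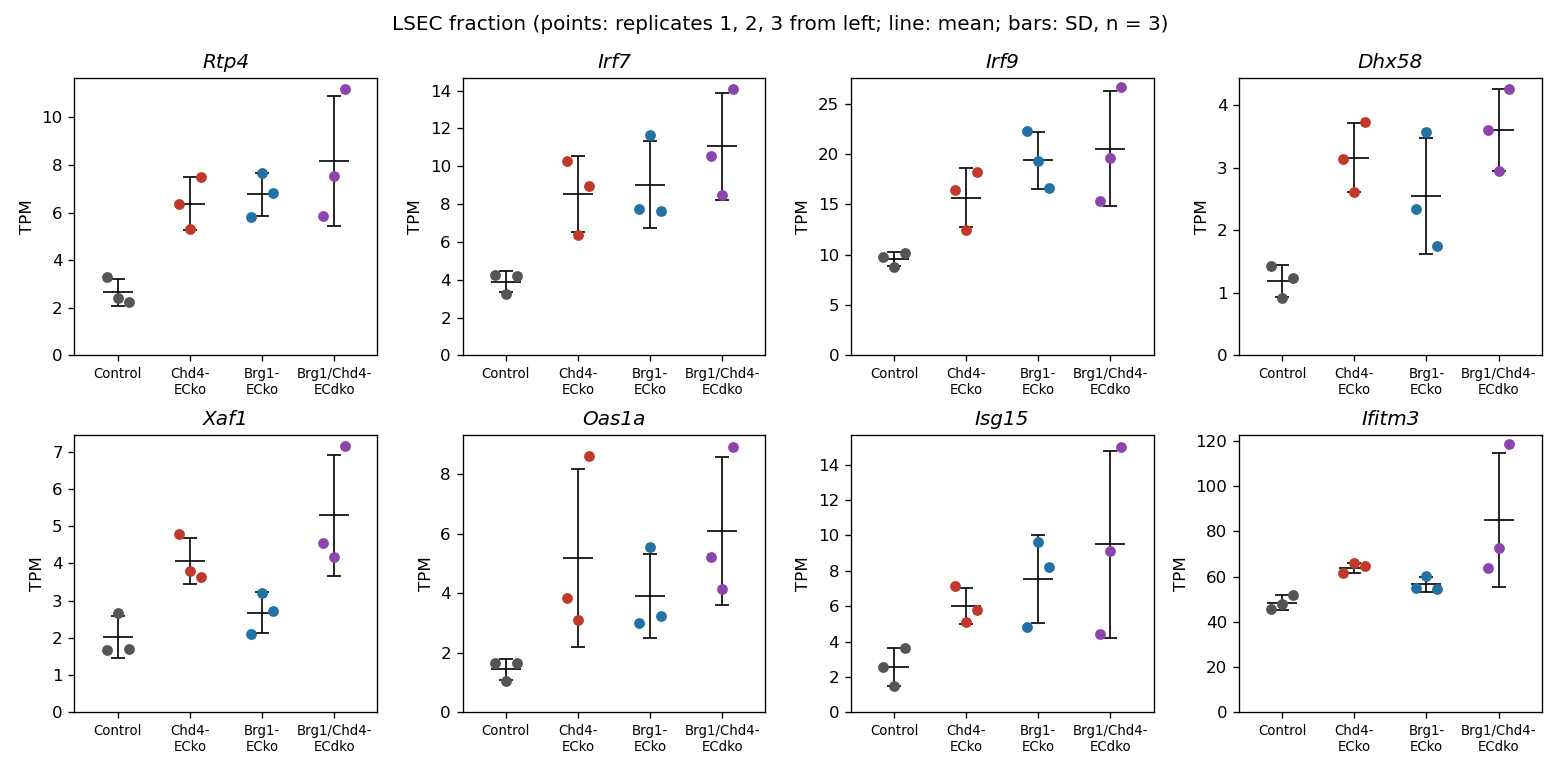
TPM of interferon-stimulated genes in LSECs for the 4 genotypes, with points for replicates 1 to 3 from the left, a line at the mean and bars of 1 SD (n = 3). Rtp4, Irf7, Irf9, Dhx58 and Oas1a have every mutant library above every control library.

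The ubiquitin-like modifier Isg15 and its protease Usp18 had large but scattered differences. Isg15 (ENSMUSG00000035692, chr4:156283883-156285303, minus strand) was at 2.56, 1.49 and 3.62 TPM (2.56 ± 1.07) in control LSECs. The levels for Chd4-ECko were 7.12, 5.13 and 5.82 TPM (6.02 ± 1.01), those for Brg1-ECko 4.81, 9.61 and 8.19 TPM (7.54 ± 2.47) and those for the double mutant 4.43, 9.13 and 14.98 TPM (9.51 ± 5.29). The double mutant's log2 fold change of 1.47 ± 0.35 missed the threshold (adjusted p = 0.0712). All mutant libraries were nevertheless above the controls. Usp18 was at 1.33, 3.07 and 1.83 TPM (2.08 ± 0.894) in controls, and at 3.25, 3.53 and 3.26 with Chd4-ECko, 9.71, 5.52 and 3.73 with Brg1-ECko and 3.37, 5.38 and 5.405 in the double mutant, again above every control. Its differences of 0.54 ± 0.28, 1.21 ± 0.28 and 0.91 ± 0.28 in that order did not pass (lowest adjusted p = 0.193). Among the membrane proteins, Ifitm3 was 0.75 ± 0.18 higher in Brg1/Chd4-ECdko LSECs (adjusted p = 0.0758), where replicate 3 reached 119 TPM. Ifitm2 was at 298, 280.3 and 292 TPM in controls and 252, 262 and 265 with Brg1-ECko, and at 265, 316 and 305 with Chd4-ECko and 260.3, 299 and 341 in the double mutant, where the ranges took in the controls. The ADP-ribosyltransferase genes Parp9 and Parp14, with Dtx3l, the ubiquitin ligase partner of PARP9, were above 0 in all 3 mutants, with medians of 0.52, 0.62 and 0.71, and none passed. The 5 GTPases Gbp2, Gbp3, Gbp7, Irgm1 and Igtp had the lowest median of the role groups in Brg1/Chd4-ECdko LSECs, at 0.25, and stood at 0.28 and 0.29 in the single mutants. The group was also split by the promoter letters. The median was 0.55 for the 19 genes with an ISRE match and 0.57 for the 21 without in the double mutant, 0.42 and 0.35 for Chd4-ECko, and 0.52 and 0.42 for Brg1-ECko. Of the 6 genes that rose, 3 had a match (Rtp4, Dhx58 and Oas1a) and 3 did not.

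The scaling and the choice of libraries bear on these 6 calls. After quantile normalization the median over all genes in Brg1/Chd4-ECdko LSECs was -0.0035 in place of 0.16, the median of the 40 genes was 0.36, 35 of 40 stayed above 0, and Rtp4 and Irf9 were the 2 that passed. Without control replicate 2, or without Brg1/Chd4-ECdko replicate 3, 0 of 40 passed, and without control replicate 1 or control replicate 3, 1 passed (Rtp4 and Irf7, in that order). Without Brg1/Chd4-ECdko replicate 2, 2 of 39 passed. Over all genes the calls fell in these 5 fits too, from 117 of 13444 to 24 to 58.

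Transcripts of the 5 ligand genes looked up were listed at or near 0, while transcripts of most receptor genes were present. Other interferon genes were not examined. Ifna4, Ifnb1, Ifnl2 and Ifnl3 were listed at 0 in all 24 libraries, and Ifng was listed at 0 in all 12 non-EC libraries and in 7 of 12 LSEC libraries, with a highest value of 0.140 TPM. Ifnar1 and Ifnar2, the chains of the type I receptor, ranged from 42.9 to 67.9 and from 22.8 to 35.5 TPM over LSEC libraries, and from 22.2 to 33.6 and from 32.6 to 39.5 over non-EC libraries. Ifngr1 and Ifngr2, the chains of the interferon gamma receptor, stood at 42.8 to 74.9 and 23.9 to 44.3 TPM in LSECs and at 56.5 to 85.7 and 10.8 to 16.3 in non-EC cells. Ifnlr1, the specific chain of the type III receptor, did not exceed 0.446 TPM in any library, while its partner Il10rb was at 7.95 to 23.6. No receptor gene passed in a mutant against its control. Of 33 pathway genes tested in LSECs, Ptpn6, Rigi and Jak2 rose in Brg1/Chd4-ECdko and Ptpn6 in Chd4-ECko, and none passed in Brg1-ECko. That is 3 of 33 against 0.751% of all genes that rose in the double mutant, and 1 of 33 against 0.677% in Chd4-ECko. Ptpn6 encodes SHP-1, a phosphatase abundant in blood cells, and it was at 33.6, 29.2 and 43.5 TPM (35.5 ± 7.33) in controls, 64.1, 92.04 and 86.1 TPM (80.7 ± 14.7) in Chd4-ECko (1.17 ± 0.16, adjusted p = 0.00337) and 71.9, 63.2 and 74.4 TPM (69.8 ± 5.92) in Brg1/Chd4-ECdko (0.97 ± 0.16, adjusted p = 0.0109). Jak2, the kinase of the interferon gamma receptor and of several blood cytokine receptors, was at 47.2, 41.3 and 38.7 TPM (42.4 ± 4.36) in controls and 61.3, 65.98 and 75.7 TPM (67.7 ± 7.38) in Brg1/Chd4-ECdko (0.66 ± 0.13, adjusted p = 0.037).

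Non-EC cells also differed between genotypes. This fraction holds the blood lineage, part of which has Cre activity, and it kept endothelial markers at a summed 25.8 to 59.7 TPM. Usp18 and Lgals3bp rose in all 3 mutants, Ifitm2 and Ifitm3 in both single mutants, Irf7 and Irgm1 with Brg1-ECko, and Isg20 with Chd4-ECko, where Ifit2 fell. In Chd4-ECko 5 of 37 genes rose and 1 fell, against 6.17% and 3.31% of all 12223 genes tested. There 22 of 37 were above 0 (50.7% of all genes), 12 were higher and 2 lower at an unadjusted p under 0.05 (15.2% and 18.7%), and the median log2 fold change was 0.19 beside 0.01 over all genes. That median rested on control replicate 2: without it the median was 0.04 beside -0.03, and 19 of 37 were above 0. Brg1-ECko had 6 of 37 that rose and 0 that fell, against 8.91% and 2.76%. Of the 37, 27 were above 0 (52.4%), 15 were higher and 2 lower at an unadjusted p under 0.05 (17.5% and 10.6%), and the median was 0.31 beside 0.02. In the double mutant 2 of 37 rose and 0 fell, against 0.565% and 0.0164%. Above 0 were 30 of 37 (53.1%), 14 were higher and 0 lower at an unadjusted p under 0.05 (10% and 1.73%), and the median was 0.32 beside 0.01. All 3 mutant values lay above the controls for 11 genes with Chd4-ECko (29.7%, against 15.8% of all genes), 18 with Brg1-ECko (48.6%, against 21.9%) and 16 in the double mutant (43.2%, against 16%). They lay below the controls for Ifit2 and Cmpk2 with Chd4-ECko (11.6% of all genes), for Ifit2 with Brg1-ECko (18%), and for 0 genes in the double mutant (8.01%). These comparisons again share their 3 control libraries, of which replicate 2 had only 3 of the 37 genes above the control mean while replicates 1 and 3 had 31 and 32.

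Usp18 (ENSMUSG00000030107, chr6:121222848-121247877, plus strand) was at 4.35, 5.24 and 4.91 TPM (4.84 ± 0.449) in control non-EC cells. With Chd4-ECko it stood at 12.3, 9.14 and 10.8 TPM (10.7 ± 1.59), with Brg1-ECko at 14.9, 10.9 and 11.6 TPM (12.5 ± 2.15) and with Brg1/Chd4-ECdko at 8.91, 9.55 and 10.2 TPM (9.54 ± 0.632). All 9 mutant libraries were above the 3 controls, by 1.00 ± 0.15 (adjusted p = 0.006), 1.20 ± 0.15 (adjusted p = 0.00133) and 0.85 ± 0.15 (adjusted p = 0.0374) on the log2(TPM + 1) scale. Lgals3bp (ENSMUSG00000033880, chr11:118280716-118292918, minus strand), a secreted glycoprotein that binds galectins, was at 30.01, 23.3 and 32.5 TPM (28.6 ± 4.798) in controls. Libraries of Chd4-ECko held 56.2, 51.7 and 60.8 TPM (56.2 ± 4.53), those of Brg1-ECko 79.5, 52.1 and 68.6 TPM (66.7 ± 13.8) and those of the double mutant 52.6, 47.2 and 52.3 TPM (50.7 ± 3.005). It was likewise higher in 9 of 9 mutant libraries, by 0.96 ± 0.16 (adjusted p = 0.00802), 1.19 ± 0.16 (adjusted p = 0.00154) and 0.82 ± 0.16 (adjusted p = 0.0483). In the double mutant both calls were lost in every fit that left out 1 library. Over all genes the calls fell in these fits too, from 71 of 12223 to between 0 and 14.

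Of the 4 membrane restriction factors, Ifitm2 and Ifitm3 rose in both single mutants, and Bst2 and Ifitm1 passed in none. Ifitm2 (ENSMUSG00000060591, chr7:140534738-140536228, minus strand) was at 145, 118 and 137 TPM (133 ± 13.9) in control non-EC cells. Among mutants, Chd4-ECko gave 188, 224 and 197 TPM (203 ± 18.9), Brg1-ECko 211, 224 and 208 TPM (215 ± 8.16) and Brg1/Chd4-ECdko 180.3, 169 and 173 TPM (174 ± 5.703). It rose by 0.61 ± 0.09 in Chd4-ECko (adjusted p = 0.00687) and 0.69 ± 0.09 in Brg1-ECko (adjusted p = 0.00181), with all mutant libraries above the controls. Ifitm3 (ENSMUSG00000025492, chr7:140589499-140591282, minus strand) was at 25.04, 15.7 and 19.6 TPM (20.1 ± 4.67) in controls. Chd4-ECko libraries had 32.4, 44.7 and 39.9 TPM (39.01 ± 6.1998), Brg1-ECko libraries 45.7, 45.02 and 39.4 TPM (43.4 ± 3.46) and Brg1/Chd4-ECdko libraries 30.3, 35.5 and 53.1 TPM (39.6 ± 11.96), again without overlap. In the same order the log2 fold changes were 0.93 ± 0.21 (adjusted p = 0.0251), 1.09 ± 0.21 (adjusted p = 0.00803) and 0.93 ± 0.21 (adjusted p = 0.0691). The Ifitm3 call in Chd4-ECko was lost in 5 of 14 alternative fits (limma, adjusted p up to 0.0850). Ifitm1 of the same gene cluster was below controls in all 3 mutants, at -0.31, -0.35 and -0.09, and passed in none.

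Irf7 was at 2.98, 1.43 and 3.05 TPM (2.49 ± 0.912) in control non-EC cells. The levels for Chd4-ECko were 4.96, 5.003 and 5.72 TPM (5.23 ± 0.426), those for Brg1-ECko 6.29, 8.44 and 6.57 TPM (7.101 ± 1.17) and those for the double mutant 4.21, 3.96 and 7.93 TPM (5.37 ± 2.22). It rose by 1.24 ± 0.25 in Brg1-ECko (adjusted p = 0.0101) and was 0.87 ± 0.25 higher in Chd4-ECko (adjusted p = 0.0516), and no mutant library overlapped the controls. Irgm1 (ENSMUSG00000046879, chr11:48752795-48763164, minus strand), a GTPase of interferon-induced autophagy, was at 18.2, 16.6 and 18.1 TPM (17.6 ± 0.925) in controls, 25.99, 24.2 and 24.8 TPM (25.02 ± 0.897) with Brg1-ECko and 24.02, 26.4 and 28.6 TPM (26.3 ± 2.29) in the double mutant. It rose by 0.48 ± 0.11 in the first (adjusted p = 0.0171), and the difference of 0.55 ± 0.11 in the second missed the threshold (adjusted p = 0.0516). Isg20 (ENSMUSG00000039236, chr7:78562598-78570153, plus strand), an exonuclease that degrades viral RNA, was at 4.79, 3.897 and 3.46 TPM (4.05 ± 0.678) in controls and 7.42, 6.06 and 7.19 TPM (6.89 ± 0.7299) in Chd4-ECko, a rise of 0.65 ± 0.16 (adjusted p = 0.0337). That Isg20 call was lost in 6 of 14 alternative fits (limma, adjusted p up to 0.136). The groups were apart in each of these comparisons.

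Ifit2 (ENSMUSG00000045932, chr19:34527932-34554524, plus strand) was the only member that fell with an adjusted p under 0.05 in the 6 comparisons with controls, and that call was lost in 5 of 14 alternative fits (adjusted p up to 0.107). In non-EC cells it was at 10.5, 9.21 and 10.3 TPM (10.005 ± 0.694) in controls. With Chd4-ECko it stood at 6.87, 3.73 and 3.603 TPM (4.73 ± 1.85), with Brg1-ECko at 7.36, 7.58 and 5.78 TPM (6.91 ± 0.981) and with Brg1/Chd4-ECdko at 8.16, 9.71 and 7.29 TPM (8.39 ± 1.23). It fell by 0.98 ± 0.20 on the log2 scale in Chd4-ECko (adjusted p = 0.0181), and all Chd4-ECko and Brg1-ECko libraries lay below all controls. Cmpk2, a mitochondrial nucleotide kinase that neighbours Rsad2 in the genome, also had a lower mean in all 3 mutants, and passed in none. It was at 8.198, 5.71 and 8.57 TPM (7.49 ± 1.55) in controls. Libraries of Chd4-ECko held 5.7005, 4.69 and 4.62 TPM (5.001 ± 0.606), those of Brg1-ECko 5.06, 5.75 and 3.71 TPM (4.84 ± 1.04) and those of the double mutant 4.71, 4.22 and 7.24 TPM (5.39 ± 1.62). Chd4-ECko replicate 1 stood apart for several members: Eif2ak2 (PKR) was at 41.6, 16.1 and 10.97 TPM in the 3 Chd4-ECko libraries and 35.1, 25.96 and 34.3 in controls, and Ifih1 at 4.703, 1.18 and 1.06 and 3.605, 3.15 and 3.52. Without that library 7 of 36 genes rose and 4 fell, and 4592 of all 12180 genes passed in place of 1159 of 12223.

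**Figure D4:**
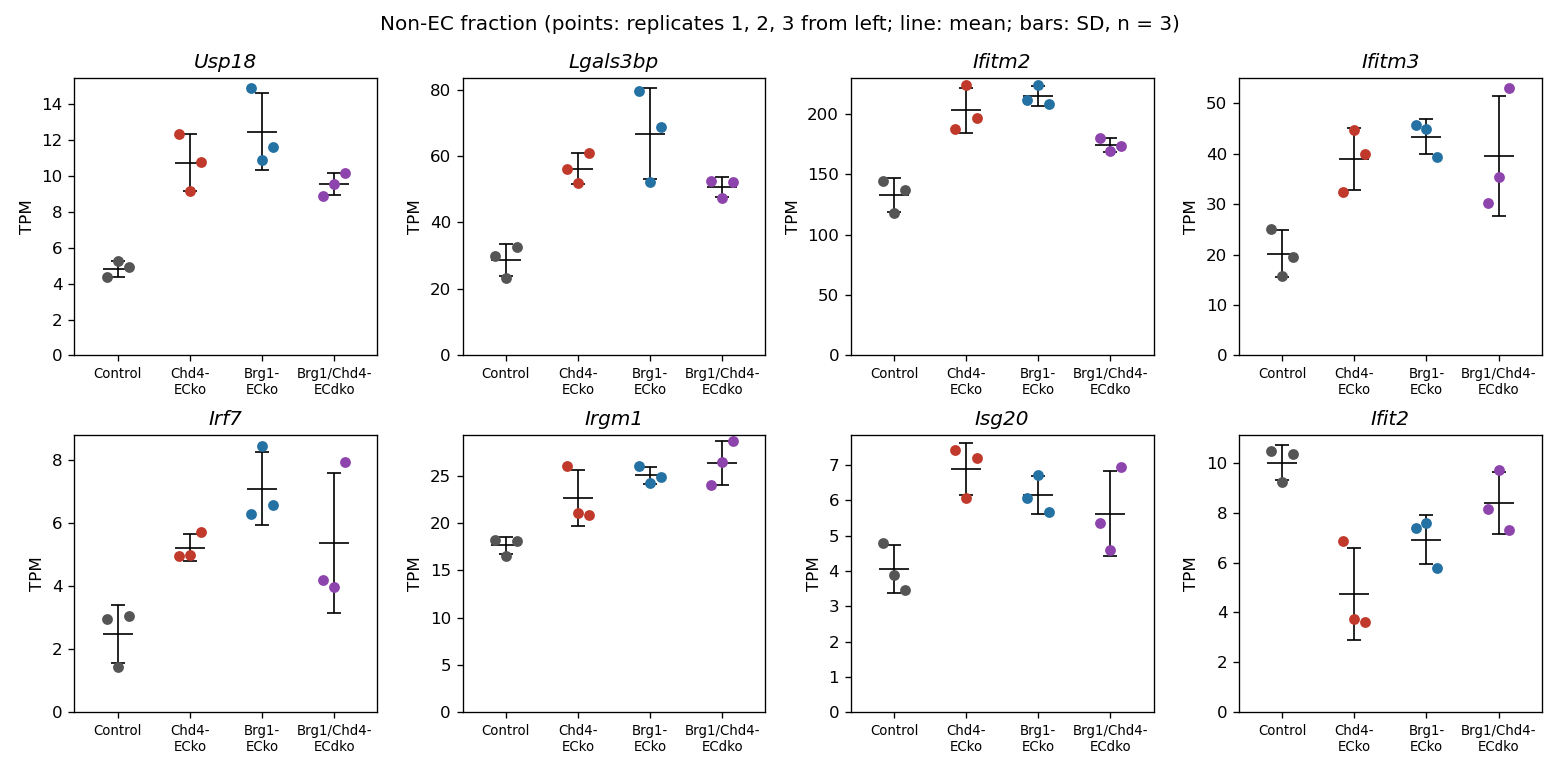
TPM in non-EC cells of the 8 interferon-stimulated genes that passed in at least 1 mutant, for the 4 genotypes, with points for replicates 1 to 3 from the left, a line at the mean and bars of 1 SD (n = 3). Usp18, Lgals3bp, Ifitm2 and Ifitm3 have all 9 mutant libraries above the controls, and Ifit2 has all Chd4-ECko and Brg1-ECko libraries below them.

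Hepatoblast markers moved in the same libraries. All 7 had a mean above controls in each mutant, with 6 of 7 passing for Chd4-ECko (median 0.81), 7 for Brg1-ECko (0.95) and 0 for the double mutant (0.56). Their summed level was 15785 to 17599 TPM in controls, 23468 to 32425 for Chd4-ECko, 22922 to 33848 for Brg1-ECko and 20052 to 26788 for the double mutant, with no marker at 0 in any library. Macrophage markers were above 0 for 12 of 13 in Chd4-ECko (median 0.41), 13 of 13 in Brg1-ECko (0.26) and 6 of 13 in the double mutant (-0.03), and none passed. General leukocyte markers were above 0 for 1, 1 and 0 of 6 (medians -0.16, -0.10 and -0.16) and megakaryocyte markers for 0, 2 and 1 of 6 (medians -0.22, -0.02 and -0.34), and none passed. Immediate-early genes were above 0 for 6, 5 and 4 of 7 (medians 0.33, 0.25 and 0.08), and none passed. Mesenchymal markers were above 0 for 5 of 5 in each mutant (medians 0.46, 0.34 and 0.22, 1 passed, in Chd4-ECko), at a summed 11.7 to 41.4 TPM over all non-EC libraries. Erythroid markers were above 0 for 7, 2 and 3 of 11 in the same order (medians 0.01, -0.81 and -0.42), with 3 higher and 1 lower passing in Chd4-ECko and 2 lower in Brg1-ECko. Of 6 granulocyte markers, 0 had a mean above controls in any mutant. The part of these cell types in the result was not tested. Of 31 pathway genes tested in non-EC cells, 1 rose and 2 fell in Chd4-ECko, against 6.17% and 3.31% of all genes, and 3 rose in Brg1-ECko, against 8.91%, so the shares that passed were near those of all genes. Ikbke, a kinase that activates IRF3 and IRF7, rose in Chd4-ECko (0.69 ± 0.16, adjusted p = 0.0264) and Brg1-ECko (0.78 ± 0.16, adjusted p = 0.0103). Rigi rose in Brg1-ECko (0.98 ± 0.28, adjusted p = 0.0429), as did Ticam1, the adaptor of TLR3 (0.43 ± 0.12, adjusted p = 0.034). Jak2 fell by 1.00 ± 0.28 in Chd4-ECko (adjusted p = 0.0473), from 54.1, 44.2 and 56.4 TPM (51.6 ± 6.47) to 41.2, 26.9 and 14.3 TPM (27.4 ± 13.5), and Herc6, the ligase that attaches ISG15 in the mouse, fell by 0.61 ± 0.17 (adjusted p = 0.0457). None passed in Brg1/Chd4-ECdko (lowest adjusted p = 0.0864).

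Brg1/Chd4-ECdko was compared with Chd4-ECko directly. Chd4-ECko embryos were Brg1fl/+ with the Cre, so this comparison concerns loss of the remaining Brg1 allele. In LSECs 0 of 40 genes passed (limma; 0.00744% of all genes rose and 0.0298% fell), and 3 were higher and 0 lower at an unadjusted p under 0.05, against 8.81% and 1.58% of all genes. The 3 genes were Ifit2 (0.54 ± 0.14, 95% interval 0.24 to 0.83, adjusted p = 0.331), Eif2ak2 (0.38 ± 0.16, 0.04 to 0.72, adjusted p = 0.47) and Ifit3 (0.59 ± 0.26, 0.03 to 1.15, adjusted p = 0.479). Ifit2 was at 13.3, 13.2 and 12.9 TPM with Chd4 deleted and 16.7, 19.2 and 23.1 with both deleted, Eif2ak2 at 45.8, 31.7 and 41.8 and 47.8, 49.7 and 57.4, and Ifit3 at 6.48, 8.02 and 3.83 and 9.01, 7.46 and 12.1. The 2 genotypes were apart for Ifit2 and Eif2ak2 and overlapped for Ifit3. For the genes that rose against controls the intervals included 0, as for Irf7 (-0.15 to 0.81) and Irf9 (-0.07 to 0.78). In non-EC cells 0 of 37 passed, as did 0% of all genes, and 5 were higher and 1 lower at an unadjusted p under 0.05, against 15.6% and 6.19%. The smallest p belonged to Ifit2 (0.75 ± 0.20, 95% interval 0.30 to 1.19), Parp9 (0.59 ± 0.17, 0.21 to 0.96) and Dtx3l (0.57 ± 0.20, 0.14 to 1.00), each with an adjusted p of 0.217. Ifit2 was at 6.87, 3.73 and 3.603 TPM with Chd4 deleted and 8.16, 9.71 and 7.29 with both deleted, Parp9 at 7.27, 4.57 and 4.48 and 7.32, 9.31 and 9.02, and Dtx3l at 8.88, 5.77 and 4.97 and 7.86, 11.8 and 10.7, and the 2 genotypes overlapped for Dtx3l alone. Here Chd4-ECko replicate 1 decided the outcome: without it 8 of 36 genes passed, and 3943 of all 12180.

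Whether a mutation moved a gene differently in LSECs and in non-EC cells was tested as an interaction over all 24 libraries (13775 genes). Ifitm2 differed in Brg1-ECko, where its change in LSECs minus that in non-EC cells was -0.85 ± 0.15 (adjusted p = 0.0092). It was the 1 of 40 members that passed, against 0.893% of all genes with a lower and 0.145% with a higher interaction. At an unadjusted p under 0.05 the members were 3 higher and 2 lower (10.6% and 7.2% of all genes). Mean Ifitm2 had gone in LSECs from 290.2 ± 8.92 to 259.7 ± 6.76 TPM and in non-EC cells from 133 ± 13.9 to 215 ± 8.16. Libraries of the 2 fractions with the same genotype and replicate number deviated together, so the fit was repeated with that pair as a replicate block. Ifitm3 then passed as well (-0.87 ± 0.18, adjusted p = 0.0482, against 0.134 without the block), among 98 of all 13775 genes that passed with the block and 143 without it. In Chd4-ECko 0 of 40 passed without the block (0.566% of all genes higher, 0.45% lower), and 8 were higher and 1 lower at an unadjusted p under 0.05 (12.3% and 6.73%). The smallest p belonged to Ifitm2 (-0.58 ± 0.15, adjusted p = 0.0583), Cmpk2 (1.02 ± 0.29, adjusted p = 0.0918) and Ifih1 (1.01 ± 0.38, adjusted p = 0.181). With the block Cmpk2 passed (1.02 ± 0.21, adjusted p = 0.0389), among 131 of all genes against 140 without it. It had gone from 3.58, 3.19 and 3.096 to 4.94, 5.55 and 5.15 TPM in LSECs and from 8.198, 5.71 and 8.57 to 5.7005, 4.69 and 4.62 in non-EC cells. Without non-EC Chd4-ECko replicate 1, 9 of 40 passed, and 1913 of all 13758 genes did in place of 140 of 13775. In the double mutant 0 of 40 passed with or without the block. Without it 0.0218% of all genes were higher and 0.0363% lower. At an unadjusted p under 0.05, 5 members were then higher and 1 lower (5.1% and 2.48% of all genes). Cmpk2 (0.74 ± 0.29, adjusted p = 0.538), Oas1a (1.03 ± 0.41, adjusted p = 0.55) and Ifitm2 (-0.35 ± 0.15, adjusted p = 0.597) had the smallest p. With the block, 7, 14 and 8 members were higher at an unadjusted p under 0.05 in Brg1-ECko, Chd4-ECko and the double mutant. Shares of all genes at that p were not counted for the block.

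**Figure D5:**
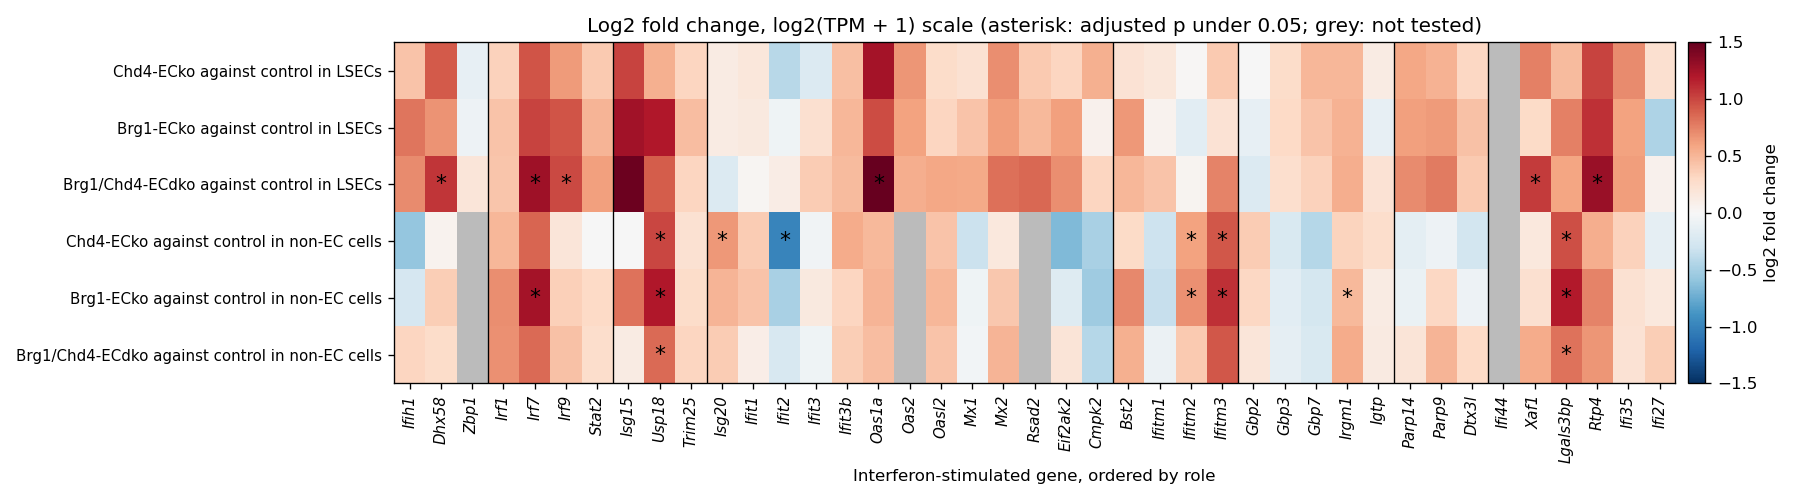
Log2 fold change on the log2(TPM + 1) scale of the interferon-stimulated genes, ordered by role, for the 3 mutants against controls in LSECs and in non-EC cells. Rows of LSECs are above 0 for 36 (Chd4-ECko), 34 (Brg1-ECko) and 38 (double mutant) of 40 genes and those of non-EC cells for 22, 27 and 30 of 37, where Ifit2 and Cmpk2 are below 0 in every mutant. Asterisks mark an adjusted p under 0.05 and grey marks genes not tested.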

How the data were processed

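Poly-A RNA libraries were sequenced from 24 samples, 2 fractions by 4 genotypes by 3 replicates, grouped by their labels. The authors aligned reads to GRCm39/mm39 and deposited TPM for each gene and library from CLC Genomics Workbench, with 8 further columns of group means, which were not used. The version, the annotation and the treatment of reads with several matches are not given in the sources used here. Depth per sample is unknown from TPM, and 3 libraries per group limit the precision. No column was left unmapped (0).

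Log2(TPM + 1) was fitted with limma 3.58.1 in R 4.3.3, 1 model per fraction and 1 over both for fraction contrasts, with variances moderated on a trend. Genes that reached 1 TPM in 3 or more libraries were kept, and p-values were adjusted (Benjamini-Hochberg) over all of them. Fold changes on this scale understate low genes. The p-values are two-sided and, for comparisons within a fraction, measure the spread between these embryos. Fits over both fractions took the 24 libraries as independent, except where the replicate block is named. Genes that passed, or else the 3 with the smallest p, are given by library, and any with an unadjusted p under 0.05 may be named. The members and lists were chosen with earlier results of these data known. Python 3.11.15 with pandas 2.3.3 and matplotlib 3.10.9 searched promoters and drew figures.

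Pairing by replicate number was checked on deviations from group means. LSEC and non-EC libraries of 1 genotype and number correlated in 12 of 12 pairs (r = 0.124 to 0.411), so these were taken as pairs. The source is the data, since the labels do not say what the numbers stand for. Within a fraction the genotypes share only a number. Alternatives changed the pseudocount, filter, scaling, moderation, block and libraries.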

Additional observations from a re-analysis of the deposited data

Results flagged for a closer look

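The effect of a genotype differed between LSECs and non-EC cells, by the interaction test over 24 libraries, for 3 genes. For Ifitm2 the Brg1-ECko effect in LSECs minus that in non-EC cells was -0.85 on the log2(TPM + 1) scale, with an adjusted p of 0.0092 (limma) and of 0.0297 with a replicate block. Ifitm3 had an interaction of -0.87 in Brg1-ECko and Cmpk2 of 1.02 in Chd4-ECko, and both passed with the replicate block alone (adjusted p = 0.0482 and 0.0389), where 98 and 131 of all 13775 genes passed. Groups of 3 are too small for a test of single outlying samples.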

How the results depend on the processing

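Of 1501 values that the alternatives gave for 110 gene results of 34 members, 1391 kept their direction and their side of the threshold, 77 lost the threshold, 33 gained it and 0 reversed. In non-EC Brg1-ECko, Usp18, Lgals3bp, Ifitm2, Ifitm3 and Irf7 passed in all 14 alternatives, and Irgm1 was lost in 3 (adjusted p up to 0.0705). In non-EC Chd4-ECko, Usp18 and Lgals3bp passed in all 14, and Ifitm2 was lost in 1, Ifitm3 and Ifit2 in 5 each and Isg20 in 6 (adjusted p up to 0.136). In the non-EC double mutant, Usp18 was lost in 9 of 14 and Lgals3bp in 10. In Brg1/Chd4-ECdko LSECs, Rtp4 was lost in 3 of 14, Irf7 in 4, Irf9 in 6, Dhx58 in 7 of 13, and Xaf1 and Oas1a in 9 of 13 each.

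Counts of members that passed moved as follows, with calls over all genes in parentheses, and the causes were not tested. In Chd4-ECko LSECs 0 (95) became 1 with a pseudocount of 0.1 TPM (99), where the median became 0.51, with quantile normalization (70) or without mitochondrial genes (90), 2 without a trend in the moderation (108), and 3 with the 2 compared groups alone (148). In Brg1/Chd4-ECdko LSECs 6 (117) became 3 without a filter (109) or with a mean of at least 5 TPM (83), which changes the genes tested, 2 with quantile normalization (74), and 9 with the 2 groups alone (313). In non-EC cells, Chd4-ECko went from 6 (1159) to 2 with the 2 groups alone (165), and Brg1/Chd4-ECdko from 2 (71) to 0 without a filter (36) or without mitochondrial genes (27) and to 1 without a trend (54) or with the 2 groups alone (59). The Brg1-ECko median there became 0.38 with a pseudocount of 0.1 TPM. The Chd4-ECko interaction went from 0 (140) to 1 with quantile normalization (319) or without mitochondrial genes (204).

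A replicate block on the replicate number, which is only a shared number within a fraction (mean correlation of same-numbered libraries 0.171 in LSECs, 13 of 18 over 0.1, and 0.127 in non-EC cells, 10 of 18), gave in LSECs 1 (131) for Chd4-ECko, 0 (11) for Brg1-ECko and 9 (164) for the double mutant, in non-EC cells 7 (1438), 6 (1603) and 3 (301), and 0 for the double mutant against Chd4-ECko in both (7 in LSECs and 0 in non-EC cells). The replicate block on LSEC and non-EC pairs gave 1 (131), 2 (98) and 0 (8) for the 3 interactions in the same order and 29 (9585) for the control fractions, and it changed no other call of the interactions.

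Leaving out 1 library gave 0 to 0 in Chd4-ECko and Brg1-ECko LSECs, 0 to 6 in Brg1/Chd4-ECdko LSECs, 3 to 11 in Chd4-ECko (median 0.04 to 0.26, lowest without control replicate 2), 5 to 7 in Brg1-ECko (median 0.26 to 0.41) and 0 to 0 in Brg1/Chd4-ECdko non-EC cells, 0 to 8 for the double mutant against Chd4-ECko in non-EC cells, 0 to 9 for the Chd4-ECko interaction and 22 to 25 for the control fractions. The 3 came without control replicate 3, Chd4-ECko replicate 2 or Chd4-ECko replicate 3, and the 11, 8 and 9 without Chd4-ECko replicate 1 of the non-EC cells. Over all genes the same fits gave 24 to 105 calls in Brg1/Chd4-ECdko LSECs (117 with all libraries), 359 to 4592 (1159) in Chd4-ECko and 568 to 1233 (1426) in Brg1-ECko non-EC cells, and 16 to 1913 (140) for the Chd4-ECko interaction. In LSECs they gave 29 to 191 calls (95) in Chd4-ECko and 0 to 8 (3) in Brg1-ECko. In non-EC cells they gave 0 to 14 (71) in Brg1/Chd4-ECdko and 0 to 3943 (0) for the double mutant against Chd4-ECko. A genotype left with 2 libraries keeps the pooled spread. Depth per library is unknown, so no counting error can be given for low genes such as Ifi44, Mx1 and Zbp1.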
